A study of Nasonia vitripennis x Nasonia giraulti with 2 samples.

Results

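Of the 5531492 CpGs listed for both reciprocal F1s of Nasonia vitripennis (Nv) and Nasonia giraulti (Ng), 12401 (0.224%) were methylated at a level of at least 80% on the V and on the G allele in both crosses. These CpGs, called shared CpGs here, were selected on 4 measured levels each, the methylated reads over all reads of the V allele and of the G allele in F1VG (Nv mother, Ng father) and in F1GV (Ng mother, Nv father). Each cross was represented by 1 whole-genome bisulfite sequencing library, made from the whole bodies of 50 pooled adult females collected 24 h after eclosion. The parents were the Nv strain AsymCX and the Ng strain R16A, and both crosses carry 1 genome of each species, so every level is an average over the cells of a whole body and over the pooled females. With 1 library per cross there is no replicate error, and a difference between F1VG and F1GV is a difference between 2 libraries. Intervals are 95% Wilson intervals that cover counting error only and treat CpGs as independent.

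Bisulfite converts unmethylated cytosine so that it is read as T, while methylated cytosine is still read as C. In Nasonia, as in many insects, CpG methylation is sparse and is found mainly over the transcribed parts of genes, and its copying through DNA replication is ascribed to a DNA methyltransferase of the Dnmt1 type, whose function in insects is inferred from other organisms. In an F1 female the Nv and the Ng copy of a locus lie in the same nucleus, and reads that cover a difference between the species can be assigned to a copy. Positions below are those of the Nv scaffolds. No gene annotation or sequence of that assembly was used here, so that the CpGs are described by position and neighbours and not by gene.

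A CpG was listed for a cross where each allele had 8 reads or more. Summed over the CpGs listed for both crosses, F1VG had 276874970 reads and F1GV had 330325474, and the median depth of a CpG was 48 and 58 reads. Methylated reads made up between 2.26% and 2.37% of the reads of each allele in each library over all these CpGs. None of the 4 levels reached 80% at 5494302 CpGs, 1 level did at 9242, 2 at 7934, 3 at 7613 and all 4 at 12401. The shared CpGs were 17.2% of the 72225 CpGs with a level of at least 10% over both alleles and libraries, 32.0% of the 38752 with at least 50% and 56.9% of the 21786 with at least 80%. For comparison, 906 CpGs had at least 80% on the V allele and at most 20% on the G allele in both crosses, 331 had the reverse, and 7514 were partly methylated, with a level between 20% and 80%, on both alleles in both crosses.

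The levels that chose the shared CpGs lay well above the limit at most of them. In F1VG, the V allele averaged 93.98% ± 6.04 (SD across the 12401 CpGs) and the G allele 93.9% ± 6.04. In F1GV, the V allele averaged 92.9% ± 5.86 and the G allele 92.5% ± 5.91. The limit fixed these levels in part, and the means in F1GV were slightly lower. All 4 levels were 100% at 374 shared CpGs (3.02%) and at least 90% at 4062 (32.8%), and the median of the lowest of the 4 levels was 87.0%. Just inside the limit, the lowest level was at least 80% and under 82% at 2158 CpGs, of which 865 were at exactly 80%. Just outside it, the lowest level was at least 78% and under 80% at 1196 CpGs. With a limit of 70%, 19647 CpGs would have been chosen, and with the counts of each allele summed over both libraries 17664.

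The CpGs that missed the limit on a single level were mostly near misses. The V level in F1VG was the one that missed at 1807 CpGs, the G level in F1VG at 1811, the V level in F1GV at 1830 and the G level in F1GV at 2165. The medians of the missed level lay between 72.4% and 73.5%. The missed level was at most 20% at 32, 26, 23 and 15 of these CpGs, respectively, or between 0.693% and 1.77% of each set. CpGs with 3 high levels and 1 at or near none were therefore few.

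The assigned reads of the shared CpGs were about as many as those of all listed CpGs, while the reads in all were more. The median of all reads was 53 at shared CpGs against 48 at all listed CpGs in F1VG and 67 against 58 in F1GV. The median of assigned reads was 20 V and 20 G reads in F1VG and 26 V and 26 G reads in F1GV, against 21, 20, 26 and 25 for all listed CpGs. V reads made up 49.9% of the assigned reads at shared CpGs in F1VG and 49.6% in F1GV, and 50.8% and 50.6% at all listed CpGs. A depth over 2 times the median of all listed CpGs was found at 2.32% of the shared CpGs in F1VG and 1.25% in F1GV, against 1.44% and 0.692% of all listed CpGs. The share of listed CpGs that were shared CpGs was 0.217% where the lowest of the 4 depths was 8 to 11 reads, 0.213% at 12 to 15, 0.232% at 16 to 23 and 0.232% from 24 reads. Of the CpGs with a pooled level of at least 10%, however, 12.8%, 15.99%, 20.4% and 22.3% were shared CpGs at these depths, so that a methylated CpG passed on all 4 levels more often where it was covered more deeply.

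The 5 shared CpGs with the most reads among those at up to 2 times the median of 93 assigned reads over both libraries, a bound that left out deeper ones, show the counts behind such levels. At SCAFFOLD1 position 9049000, 49 of 52 V reads and 47 of 47 G reads were methylated in F1VG, and 38 of 43 and 39 of 44 in F1GV. At SCAFFOLD1 position 7019893, the counts were 32 of 36 V reads and 35 of 37 G reads in F1VG, and 55 of 56 and 55 of 57 in F1GV. On both alleles the former was higher in F1VG and the latter in F1GV. At SCAFFOLD2 position 6356738, they were 51 of 54 and 40 of 46 in F1VG, and 41 of 48 and 35 of 38 in F1GV. At SCAFFOLD1 position 1212749, they were 40 of 44 and 39 of 45 in F1VG, and 43 of 47 and 44 of 50 in F1GV. Both alleles were high in both crosses at each of these CpGs, and also at the last of the 5, SCAFFOLD5 position 186038, with 37 of 39 and 44 of 50 in F1VG and 42 of 47 and 49 of 50 in F1GV.

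Reads that were assigned to neither allele took no part in choosing the shared CpGs and gave high levels too. Such reads made up 20.2% of all reads at the shared CpGs in F1VG and 20.5% in F1GV, against 10.7% and 10.8% at all listed CpGs. Of the 138646 such reads in F1VG, at 9772 shared CpGs, 122290 were methylated, a level of 88.2% (88.03% to 88.37%). Of the 173101 in F1GV, at 10282 shared CpGs, 150687 were methylated, a level of 87.1% (86.9% to 87.2%). Both values were below the levels of the assigned reads, which the selection had made high. The neither-allele level at the CpGs methylated on V alone was 42.7% and 44.4% in the respective libraries, and at those methylated on G alone 40.6% and 38.8%. It was 52.5% and 50.3% at the partly methylated CpGs and 2.90% and 2.99% over all listed CpGs. In both libraries the shared CpGs were highest and the partly methylated CpGs next, with the one-allele classes below them.

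**Figure D1:**
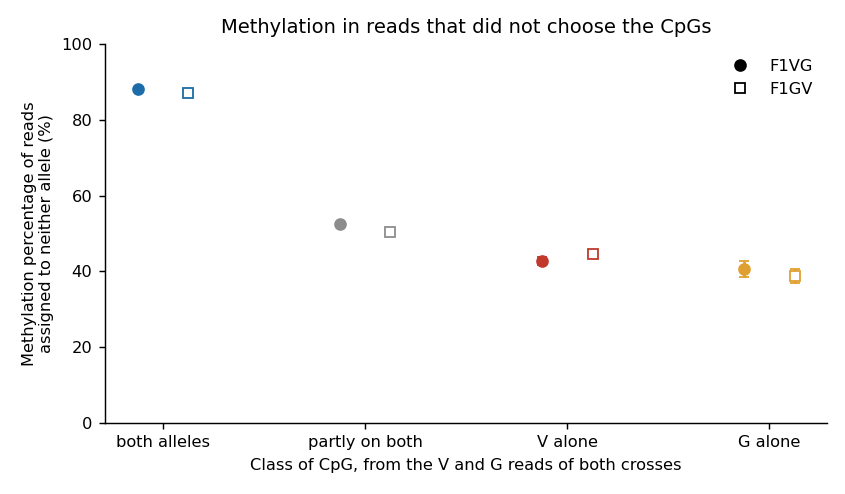
Methylation percentage of reads assigned to neither allele (vertical axis, %) at CpGs of 4 classes (horizontal axis), filled circles for F1VG and open squares for F1GV, with 95% Wilson intervals that are mostly smaller than the symbols. The shared CpGs were at 88.2% and 87.1%, and the other 3 classes lay between 38.8% and 52.5%.

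Since both libraries chose the shared CpGs, CpGs with both alleles at 80% or more in 1 library, whatever the other showed, were then looked up in the other library. In F1VG, 17515 CpGs (0.317% of all listed) had both alleles at 80% or more, and 12401 of them, or 70.8% (70.1% to 71.5%), had both alleles at 80% or more in F1GV. In F1GV, 16605 (0.3%) did, and 74.7% (74.0% to 75.3%) of them passed in F1VG. The median levels in the measuring library were 91.3% on V and 90.5% on G for the CpGs chosen in F1VG, and 93.1% and 92.9% for those chosen in F1GV. Both alleles were at most 20% in the other cross at 2 of the 17515 CpGs and at 0 of the 16605. A count of 0 allows up to 3 of these CpGs. At least 1 allele was at most 20% in the other cross at 60 (0.343%) and 75 (0.452%).

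CpGs methylated on both alleles were in the same class in the other cross more often than CpGs methylated on a single allele. In F1VG, 2014 CpGs (0.0364%) were methylated on V alone and 927 (0.0168%) on G alone, and in F1GV 2302 (0.0416%) and 622 (0.0112%) were. The same allele alone was methylated in F1GV at 45.0% of the V-alone and 35.7% of the G-alone CpGs chosen in F1VG, and in F1VG at 39.4% and 53.2% of those chosen in F1GV. Chosen in F1VG, the V-alone CpGs had medians of 83.3% on V and 5.88% on G in F1GV, and the G-alone CpGs 4.55% and 77.8%. For those chosen in F1GV, the medians in F1VG were 75.6% and 0% for V alone, and 2.18% and 87.5% for G alone. The medians thus kept the difference between the alleles. Both alleles were at most 20% at 6.16% and 3.13% of those chosen in F1VG and 13.6% and 1.29% of those chosen in F1GV. Against V alone the share kept by CpGs methylated on both alleles was higher by 25.8 percentage points (23.5 to 28.1) from F1VG to F1GV and by 35.3 (33.2 to 37.4) from F1GV to F1VG. Against G alone it was higher by 35.1 (31.9 to 38.2) and by 21.47 (17.52 to 25.45). By Fisher's exact test, with Benjamini-Hochberg adjusted p-values over the 8 comparisons made here, these 4 differences had p-values from 1.9e-29 to 2.8e-240. The tests count CpGs as independent units, which neighbours on a read are not. With 1 library per cross, the p-values do not measure variation between animals or between repeated crosses. The classes differ in size and in limits, and how far the differences in share kept follow from these was not tested. The direction was the same on each scaffold with at least 20 CpGs of both classes, 30 of 30 and 31 of 31 against V alone, and 5 of 5 and 3 of 3 against G alone. The numbers kept, 12401, 906 and 331, are the same from F1VG to F1GV and back, so the 2 directions are not separate observations.

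CpGs methylated on both alleles were also kept more often than partly methylated CpGs, but this comparison depended on the limit. In F1VG 12532 CpGs (0.227%) and in F1GV 14810 (0.268%) had a level between 20% and 80% on both alleles, and 59.96% and 50.7% of them were in this class in the other library. The share kept by CpGs methylated on both alleles was higher by 10.8 percentage points (9.75 to 11.9, adjusted p = 7.0e-85 by Fisher's exact test) from F1VG to F1GV, on 70 of 79 scaffolds. It was higher by 23.9 (22.9 to 24.98) from F1GV to F1VG, on 82 of 82 scaffolds, with an adjusted p below 2.2e-308, the smallest number the software holds. With limits of 90% and 10% in place of 80% and 20%, the first of these differences turned to -3.18 percentage points (adjusted p = 1.5e-07 by Fisher's exact test). Neighbouring CpGs share reads, so these p-values are too small. Here too the numbers kept, 12401 and 7514, are the same in both directions. With at most 1 CpG per 1000 bp, the 6 differences between classes lay between 8.99 and 36.3 percentage points, with adjusted p-values from 6.2e-27 down to 7.7e-169.

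**Figure D2:**
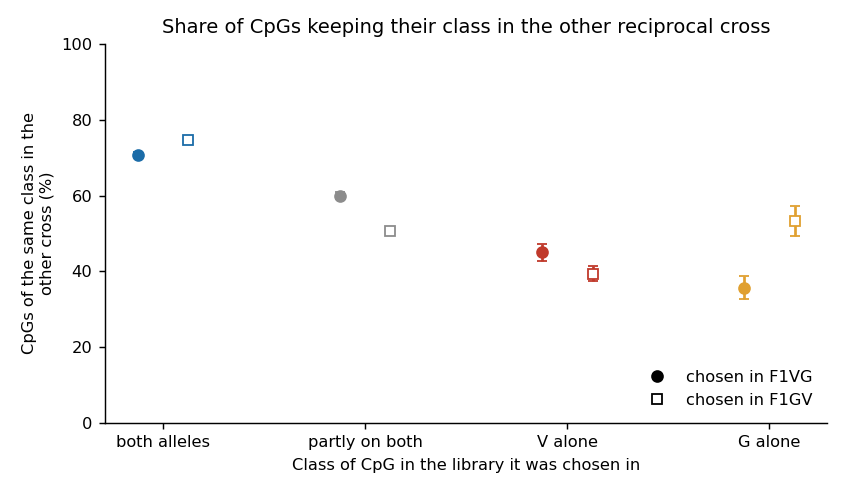
Share of CpGs chosen in a single library that were in the same class in the other library (vertical axis, %), by class (horizontal axis), filled circles for CpGs chosen in F1VG and open squares for CpGs chosen in F1GV, with 95% Wilson intervals. CpGs methylated on both alleles were kept at 70.8% and 74.7%, above the other 3 classes in both directions. The CpGs kept in a class are the same in both directions.

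High methylation of an allele of 1 species in 1 cross was accompanied, at most CpGs, by high methylation of the other species' allele in the other cross. The V allele was at 80% or more in F1VG at 25842 CpGs (0.467%), and at 64.7% (64.1% to 65.3%) of these the G allele was at 80% or more in F1GV, as was the V allele at 74.9% (74.4% to 75.4%). The G allele was at 80% or more in F1VG at 24328 CpGs (0.44%), with 71.1% for V and 72.7% for G in F1GV. Of the 25538 CpGs (0.462%) chosen on V in F1GV, 67.8% passed on G and 75.8% on V in F1VG. Of the 21845 (0.395%) chosen on G in F1GV, 76.5% passed on V and 80.9% on G in F1VG. The other species' allele passed less often than the same allele in each of the 4 cases, and at most of the CpGs in all of them. The numbers passing, 16718 and 17306 for the other allele and 19355 and 17680 for the same allele, each serve in both directions. The 4 cases are therefore not 4 observations. The other species' allele was at most 20% at 6.95%, 3.84%, 10.2% and 2.89% of the CpGs, respectively, with the higher values where V was the allele chosen.

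Most shared CpGs had another nearby. The median distance between consecutive shared CpGs of a scaffold was 191.5 bp, with quartiles of 34 and 2292 bp and a range from 2 to 966854 bp. This median was 1951 bp with a limit of 90% and 344.5 bp with at least 16 reads per allele and library. Another shared CpG lay within the length of a read at 59.2% and within 1000 bp at 89.6%. In contrast, 0.370% of all listed CpGs lay within a read's length and 2.23% within 1000 bp of a shared CpG. Consecutive partly methylated CpGs had a median distance of 947 bp, those methylated on V alone 326.5 bp and those on G alone 227.5 bp. The lower quartile was 34 bp for the shared CpGs and 29.8 bp for both one-allele classes, so that close pairs were found in each of them, while the upper quartile was 41293 bp for V alone and 33742 bp for G alone. These classes are far smaller, and distances depend on the number of CpGs in a class.

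Groups of at least 4 shared CpGs with at most 1000 bp between neighbours, called clusters here, held 7437 shared CpGs (59.97%). There were 1292 of them on 160 scaffolds (2239 at a limit of 70% and 170 at 90%), with a median of 5 shared CpGs, a median span of 581.5 bp (quartiles 353 and 871.75) and a largest span of 3701 bp. The clusters spanned 866317 bp in sum. They held 13087 listed CpGs, of which the shared CpGs were 56.8%, and 140 clusters (10.8%) contained no other listed CpG. Between the shared CpGs of a cluster the remaining CpGs were mostly methylated as well. Of all listed CpGs in clusters, 26.5% were not shared CpGs but had all 4 levels at 50% or more, and 3.39% (443) had all 4 at 20% or less. Over all listed CpGs these shares were 0.326% and 97.3%. Methylation of V alone in both crosses was found at 18 and of G alone at 2 of the 13087. The shares, 0.138% for V alone and 0.0153% for G alone, were above the 0.0164% and 0.00598% over all listed CpGs. The differences were not tested.

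The largest cluster lay on SCAFFOLD10 from 254619 to 257828 and held 24 shared CpGs among 46 listed. In F1VG, the 24 averaged 93.8% ± 5.20 (SD across CpGs) on the V allele and 94.9% ± 5.68 on the G allele, and in F1GV 93.8% ± 5.80 and 93.8% ± 5.29. Reads assigned to neither allele were methylated at 236 of 252 in F1VG and 335 of 381 in F1GV. Of the 22 other CpGs, 5 had all 4 levels at 20% or less and 8 had all at 50% or more. Levels at the rest were mixed. At 108 bp after the first shared CpG, V and G were at 100% and 0% in F1VG and 70% and 25% in F1GV. At 186 bp they were at 76.2% and 0%, and at 62.5% and 26.7%. At 505, 510 and 556 bp, V was between 66.7% and 83.3% in F1VG and between 0% and 5.26% in F1GV. The 5 low CpGs lay 42 to 495 bp after the first shared CpG, within a stretch of 755 bp that held no other shared CpG, and from there on most CpGs were high on both alleles.

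**Figure D3:**
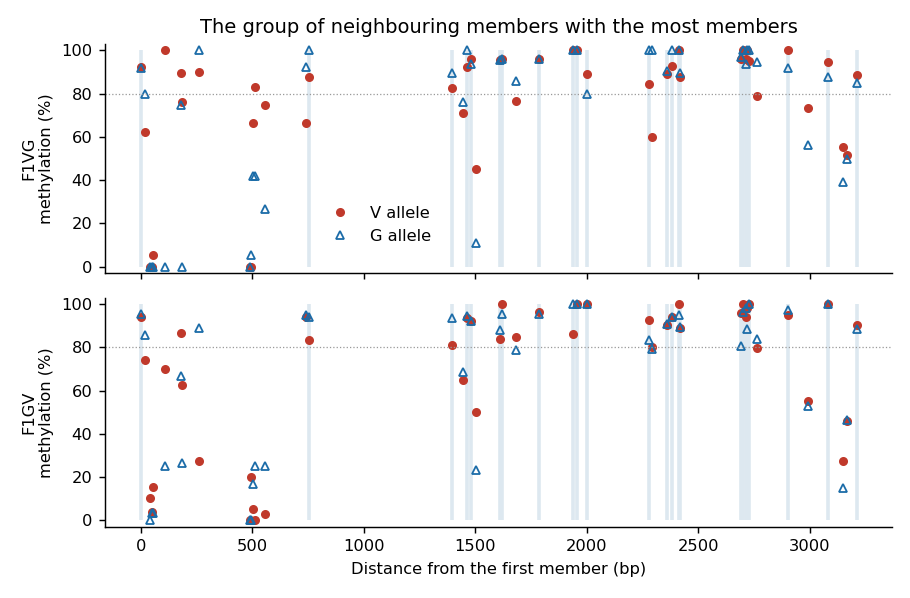
Methylation percentage (vertical axes) of the V allele (filled circles) and the G allele (open triangles) at the 46 CpGs listed in the cluster with 24 shared CpGs, by distance from its first shared CpG (horizontal axis, bp), F1VG above and F1GV below; pale vertical lines mark the shared CpGs and the dotted line is the limit of 80%. The 5 CpGs with all 4 levels at 20% or less lie 42 to 495 bp from the first shared CpG, and later CpGs are mostly high on both alleles in both crosses.

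The next clusters in size were on SCAFFOLD16 from 163827 to 165611 with 20 shared CpGs of 32 listed, on SCAFFOLD28 from 1892730 to 1894424 with 18 of 41, and on SCAFFOLD4 from 4938577 to 4941209 with 18 of 37 and from 4079880 to 4082186 with 17 of 42. In the cluster on SCAFFOLD16, 9 of the 12 other CpGs had all 4 levels at 50% or more and 0 had all at 20% or less. In the cluster on SCAFFOLD4 from 4938577, 9 of the 19 others were on each side. Over all listed CpGs of these 4 clusters the mean level ranged from 63.6% to 88.8% by allele and library. None of the 5 largest clusters held a CpG methylated on a single allele in both crosses. Such CpGs were 0.0164% (V alone) and 0.00598% (G alone) of all listed CpGs. With so few CpGs listed in these clusters, their absence says little.

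Unbroken runs of adjacent listed CpGs that all passed were short. There were 7572 runs, of which 4679 (61.8%) consisted of 1 CpG and 460 of at least 4, the latter holding 2194 shared CpGs (17.7%). The longest run held 11 CpGs on SCAFFOLD3 from 3387106 to 3387609, at positions 3387106, 3387121, 3387151, 3387417, 3387424, 3387435, 3387462, 3387498, 3387526, 3387561 and 3387609. At its first CpG 23 of 23 V reads and 27 of 28 G reads were methylated in F1VG, and 32 of 33 and 26 of 28 in F1GV. At position 3387121 the V allele was lowest, with 17 of 21 reads in F1VG. At position 3387424 the counts were 18 of 18 and 11 of 11 in F1VG, and 13 of 13 and 12 of 13 in F1GV. Mean levels over the run were 94.9% ± 6.87 for V and 96.4% ± 4.83 for G in F1VG, and 93.8% ± 7.32 and 90.4% ± 3.40 in F1GV (SD across the 11 CpGs). Adjacent CpGs of the run were up to 266 bp apart. The other long runs held 9 CpGs each, on SCAFFOLD42 from 1262243 to 1262505, SCAFFOLD43 from 521881 to 522210, SCAFFOLD10 from 256976 to 257346 and SCAFFOLD28 from 1892730 to 1893247, the last pair within clusters named above.

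The methylation of neighbouring CpGs fell with distance and did so in step on both alleles. For this profile, CpGs with both alleles at 80% or more were chosen in F1VG, and every other listed CpG was measured in F1GV and placed by its nearest chosen CpG. At 2 to 10 bp, 61.2% (59.7% to 62.7%) of 4009 CpGs had both alleles at 80% or more, and the pooled level was 84.3% on V and 83.1% on G. At 21 to 50 bp the share was 41.1% and the levels 72.1% and 69.4%, and from 51 bp to the length of a read 19.96% and 53.4% and 49.9%. Beyond the length of a read and up to 200 bp the share was 20.02% and the levels 43.3% and 40.04%. From 201 to 300 bp the levels were 22.5% and 19.8%, from 501 to 1000 bp 6.88% and 5.74%, and from 2001 to 5000 bp 2.47% and 2.37%, the last near the level over all listed CpGs. The G level was below the V level in each of these distances, by 3.58 percentage points at most. Around CpGs methylated on V alone in F1VG the neighbours at 2 to 10 bp were at 67.1% on V and 13.5% on G in F1GV, and 3.27% (2.19% to 4.86%) of them had both alleles at 80% or more.

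The share did not fall steadily with distance when all pairs of CpGs were counted and not only the nearest. For each CpG methylated on both alleles in F1VG, every listed CpG on either side under 600 bp away was measured in F1GV. Of the CpGs at 2 to 19 bp, 62.5% (61.5% to 63.5%) had both alleles at 80% or more, and at 80 to 99 bp 30.3%. The share then rose to 41.4% at 160 to 179 bp, fell to 20.4% at 260 to 279 bp, rose to 23.5% at 320 to 339 bp, fell to 12.4% at 420 to 439 bp and rose to 14.2% at 480 to 499 bp before it fell to 7.92% at 580 to 599 bp. In running windows of 21 bp, the highest share was looked for within 110 to 220, 270 to 390 and 430 to 550 bp. It lay at distances of 166, 327 and 491 bp, at steps of about 160 bp that the ranges fix in part. Between 140 and 179 bp, 5890 of 14438 pairs passed (40.8%), and between 80 and 119 bp 4544 of 14708 (30.9%), a difference of 9.90 percentage points (8.80 to 10.99). At a limit of 70% this difference was 5.80. The windows were set after the profile had been seen, and pairs share CpGs, so that the intervals are too narrow.

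The first rise was present on most scaffolds, and the later rises were weaker. Among scaffolds with at least 50 pairs in both windows, the share at 140 to 179 bp was above that at 80 to 119 bp on 40 of 48. The share at 310 to 349 bp was above that at 240 to 279 bp on 32 of 49, at 22.9% against 20.6%, and the share at 470 to 509 bp above that at 410 to 449 bp on 34 of 58, at 14.0% against 12.7%. The first rise was also seen between alleles of different species in different crosses. This is not a separate observation, because the 25842 CpGs chosen on V in F1VG include all 17515 chosen on both alleles. Pairs that passed on both alleles are counted here too. Around CpGs with the V allele at 80% or more in F1VG, the G allele in F1GV was at 80% or more at 34.7% of CpGs 80 to 99 bp away and 41.2% of those 160 to 179 bp away. In that profile the later highest shares lay at 291 and 462 bp and were less distinct. Around CpGs partly methylated in F1VG the share that were so in F1GV was 19.7% and 18.4% at these distances, with the highest value beyond 100 bp, 20.8%, at 140 to 159 bp. Around those methylated on V alone it was 15.3% and 14.3%, with 12.4% (10.7% to 14.4%) at 100 to 119 bp and 14.6% (12.6% to 16.9%) at 140 to 159 bp. Whether the profiles of the classes differ was not tested, and choosing in F1GV and measuring in F1VG counts the same passing pairs, so it is no second observation.

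**Figure D4:**
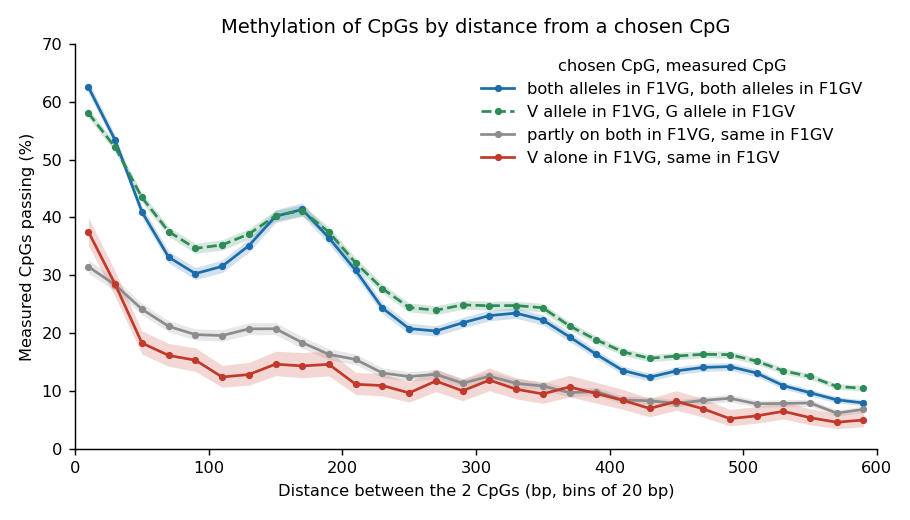
Share of measured CpGs that passed (vertical axis, %) by distance from a chosen CpG (horizontal axis, bp, bins of 20 bp), with CpGs chosen in F1VG and measured in F1GV and shaded 95% Wilson intervals. For methylation of both alleles (solid blue) the share falls to 30.3% at 80 to 99 bp, rises to 41.4% at 160 to 179 bp and rises less at longer distances; the green dashed line gives the V allele against the G allele, grey partly methylated CpGs and red CpGs methylated on V alone.

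Most CpGs flanked by shared CpGs were methylated on both alleles, and few were low on all 4 levels. Of the 3480 listed CpGs with a shared CpG within a read's length on both sides, 50.4% were shared CpGs, and another 34.3% had all 4 levels at 50% or more. All 4 levels were at most 20% at 40 (1.15%), against 97.3% of all listed CpGs. Both alleles were partly methylated in both crosses at 9.94%, against 0.136% of all listed CpGs. V alone was methylated in both crosses at 5 (0.144%) and G alone at 0, against 0.0164% and 0.00598% of all listed CpGs. Within a read's length of a shared CpG, V alone was methylated in both crosses at 42 of 20459 CpGs (0.205%) and G alone at 5 (0.0244%), against 0.0164% and 0.00598% of all listed CpGs. CpGs methylated on 1 allele thus occurred near shared CpGs, at a small share of the neighbours. Farther away, up to 1000 bp, 3.66% of 103015 CpGs were shared CpGs and 75.4% had all 4 levels at 20% or less.

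CpGs with a close neighbour of the same kind were kept more often in the other cross. Of the CpGs chosen in F1VG, 74.2% (73.4% to 75.04%) of those with another within a read's length passed in F1GV, 65.3% (64.0% to 66.6%) of those whose nearest lay farther away but within 1000 bp, and 60.8% (57.9% to 63.7%) of those with none within 1000 bp. For CpGs chosen in F1GV the shares were 77.2%, 71.0% and 66.6%. The neither-allele level was also higher where more shared CpGs lay together, up to clusters of 19, and these differences were not tested. In F1VG it was 85.9% (85.3% to 86.4%) at the 1287 shared CpGs with no other within 1000 bp, 87.9% in groups of 2 to 3, 88.6% in clusters of 4 to 9 and 89.5% (89.0% to 90.1%) in those of 10 to 19. The corresponding levels in F1GV were 84.5%, 86.9%, 87.4% and 88.7%. The 2 clusters of 20 or more had 92.3% (88.9% to 94.7%) in F1VG and 86.9% (83.6% to 89.6%) in F1GV. Shared CpGs that stood alone were therefore still highly methylated in reads that had not chosen them.

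Shared CpGs with no methylated CpG nearby were rare. The median distance to the nearest other CpG with a level of at least 10% over both alleles and libraries was 23 bp, and at 33 shared CpGs (0.266%) none lay within 1000 bp. The farthest was SCAFFOLD63 position 769404, with 12 of 12 V reads and 26 of 27 G reads methylated in F1VG and 21 of 23 and 29 of 33 in F1GV. The nearest such CpG lay 13303 bp away, but 8 CpGs only were listed within 5000 bp, with 2.05% methylated reads. SCAFFOLD5 position 2340402 had 14 of 17 V and 9 of 11 G reads in F1VG and 13 of 13 and 8 of 10 in F1GV, and its nearest lay 4967 bp away. SCAFFOLD6 position 2965333 had 10 of 12 and 18 of 20 in F1VG and 26 of 29 and 17 of 21 in F1GV, and its nearest lay 4129 bp away. Around the latter pair, 253 of 256 and 300 of 313 listed CpGs within 5000 bp were below 10%.

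The surroundings of shared CpGs were poor in listed CpGs. Within 100 bp on either side, the median was 2 other listed CpGs at shared CpGs and 11 at all listed CpGs, and no other was listed at 10.6% and 0.591%. The medians were 2 at partly methylated CpGs and 3 at those methylated on V alone and on G alone, so that low density was common to the methylated classes. A CpG is listed only where both alleles had enough reads, so that these numbers are lower limits of the density in the sequence, and how far they reflect the sequence was not tested.

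Because coding sequence is read in codons of 3 bases, the distances between adjacent CpGs were examined for multiples of 3, which were the most frequent kind among shared CpGs. Between adjacent listed CpGs that were both shared CpGs and lay at least 3 bp and at most a read's length apart, 1513 of 3756 distances (40.3%, 38.7% to 41.9%) were multiples of 3, and the remainders of 1 and 2 took 30.1% and 29.6%. Between adjacent CpGs that were both below 10% on all 4 levels, 38.0% were, a difference of 2.29 percentage points (0.730 to 3.87, adjusted p = 0.0046 by Fisher's exact test). Distances of exactly 3 bp were frequent among the latter, and from 4 bp, a lower bound chosen after seeing the data, the shares were 38.1% and 31.5%, a difference of 6.64 percentage points (5.07 to 8.23, adjusted p = 3.1e-17). By the same Fisher's exact test, the difference from 31 bp on was 6.74 percentage points (adjusted p = 1.1e-06), and the lengths of the distances were not matched between the kinds of pair. Between a shared CpG and an adjacent CpG below 10%, 68 of 185 distances (36.8%, 30.1% to 43.9%) were multiples of 3, a share 3.53 percentage points below that of pairs of shared CpGs, with an interval of the difference from -3.79 to 10.3 (adjusted p = 0.357 by Fisher's exact test). From 4 bp, the shares were 38.1% and 36.8%. Pairs of shared CpGs were then higher by 1.37 percentage points (-5.95 to 8.17, adjusted p = 0.756 by Fisher's exact test). From 31 bp on they were higher by 2.11 (adjusted p = 0.667 by Fisher's exact test). The 185 pairs cannot separate a difference of either sign, so an excess particular to pairs of shared CpGs is not shown. With a limit of 90% for all 4 levels the first difference did not pass the threshold (1.92 percentage points, adjusted p = 0.365 by Fisher's exact test).

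Shared CpGs were spread unevenly over the scaffolds. They lay on 277 of the 2683 scaffolds with listed CpGs, and 11078 of them (89.3%) on the 89 scaffolds with at least 10000 listed CpGs. Among these 89 the share ranged from 0% to 0.805%, with a median of 0.184% and quartiles of 0.109% and 0.246%, and 5 held none. SCAFFOLD1 held the most, 855 of 312066 listed CpGs (0.274%), followed by SCAFFOLD2 with 582 (0.224%), SCAFFOLD16 with 498 (0.423%), SCAFFOLD4 with 497 (0.283%) and SCAFFOLD7 with 483 (0.390%). The number followed the size of the scaffold in part only.

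SCAFFOLD28 had the highest share, with 381 shared CpGs of 47343 listed (0.805%, 0.728% to 0.889%), or 201.4 per Mb of listed span against 90.7 on SCAFFOLD1. SCAFFOLD77 (59 of 11443) and SCAFFOLD47 (196 of 38017) followed with 0.516% each. SCAFFOLD73, SCAFFOLD80 and SCAFFOLD119 held 0 of 15811, 12816 and 13731 listed CpGs, and the upper limits of their 95% intervals were 0.0243%, 0.02996% and 0.0280%, below the share over all listed CpGs. CpGs with a pooled level of at least 10% were also few there, with 42, 25 and 18. Across the 89 scaffolds, the share of shared CpGs had a Spearman's rho of 0.956 with the share of CpGs with a pooled level of at least 10%, of which shared CpGs are a subset, and of 0.509 with the share methylated on V alone or on G alone. Both correlations describe scaffolds of the same 2 libraries. On 83 of the 89 there were more shared than one-allele CpGs.

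**Figure D5:**
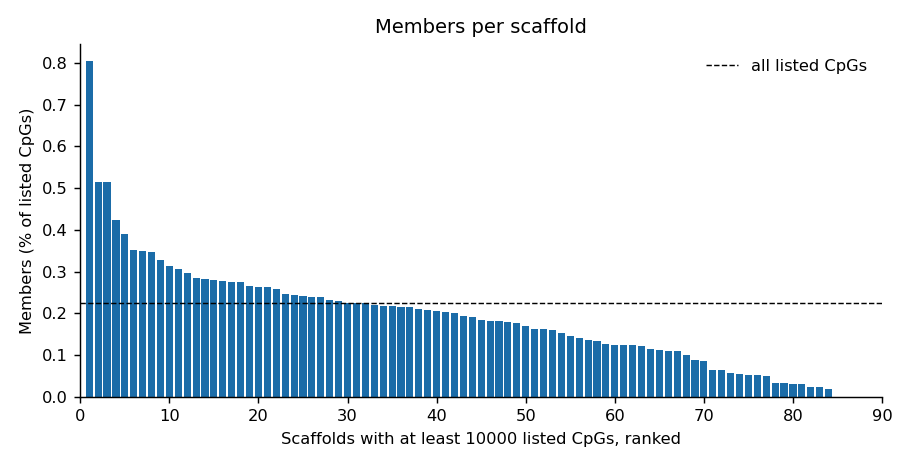
Shared CpGs as a percentage of listed CpGs (vertical axis) on each of the 89 scaffolds with at least 10000 listed CpGs (horizontal axis, ranked), with the share over all listed CpGs (0.224%) as a dashed line. The highest bar is SCAFFOLD28 at 0.805%, and the last 5 scaffolds hold none.

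The same unevenness was found within scaffolds. Of 7214 blocks of 50 kb with listed CpGs, 1548 (21.46%) held a shared CpG, and 351 blocks (4.87%) held 50% of all shared CpGs, with up to 41 in a block. The longest distance between consecutive shared CpGs was 966854 bp, on SCAFFOLD23 from 801429 to 1768283. Of the 40845 CpGs listed in between, 85 (0.208%) had a pooled level of at least 10%, 2 at least 50% and 0 were methylated on a single allele in both crosses, and 1.65% of reads were methylated. The next were 773659 bp on SCAFFOLD8 from 2360378 to 3134037 and 760280 bp on SCAFFOLD22 from 483930 to 1244210, with 40 of 28824 and 69 of 32637 listed CpGs at 10% or more. All 3 stretches held many listed CpGs, and none of these was methylated on a single allele in both crosses. Of all listed CpGs, 0.0164% were methylated on V alone and 0.00598% on G alone in both crosses. A pooled level of at least 10% was found at 72225 of all 5531492, and 2.26% to 2.37% of reads were methylated by allele and library. The differences from these values were not tested.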

How the data were processed

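WGBS-seq data of 2 libraries, F1VG and F1GV, were used. Reads of 101 bp were trimmed, aligned with BWA to the converted genomes of both species and assigned to V or G by differences between the species. Per CpG, the authors deposited counts of methylated (C) and unmethylated (T) reads over all, V and G reads, unnormalized, for CpGs with at least 8 reads per allele. CASAVA 1.8.2, FastQC, Trimmomatic and BWA are named in the submitters' processing notes. Whether counts sum both strands was not tested.

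Files were joined by scaffold and position. Levels are C/(C+T), and reads assigned to neither allele are all reads minus V and G reads. At 450 CpGs V and G counts exceeded all reads. These were left out of the neither-allele levels, and 0 of them were shared CpGs. CpGs listed in a single file were not used. Shares were compared by Fisher's exact test (two-sided), with Benjamini-Hochberg adjusted p-values, and intervals of differences are Newcombe's. Tables were made with pandas 2.3.3 and NumPy 2.4.6 under Python 3.11.15, tests with SciPy 1.17.1 and plots with Matplotlib 3.10.9, and the functions were tested on simulated counts. The members, classes and lists were chosen with earlier results of these data known. Named were the 5 clusters with the most shared CpGs, the 5 longest runs, the 5 scaffolds with the most and the 3 with the highest and lowest share, the 5 deepest shared CpGs up to 2 times the median depth, the 3 most isolated and the 3 longest stretches without any. Alternatives were other limits, 16 reads per allele, counts summed over both libraries, other distances, leaving out the 450 CpGs and 1 CpG per 1000 bp.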

Additional observations from a re-analysis of the deposited data

Results flagged for a closer look

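CpGs listed for a single cross took no part in the comparisons above and are given here as a separate count. Both alleles were at 80% or more at 633 of the 273310 CpGs (0.232%, 95% Wilson interval 0.214% to 0.250%) listed in F1VG alone, and at 3423 of the 995756 (0.344%, 0.332% to 0.355%) listed in F1GV alone. For CpGs listed in both, F1VG had a share of 0.317% and F1GV one of 0.3%, so that the share was lower than this among CpGs listed in F1VG alone and higher among those listed in F1GV alone. Neither difference was tested. Whether these CpGs were methylated in the other cross was not measured.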

How the results depend on the processing

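Of 100 alternative values, 55 stayed on their side of the threshold, within their error or, for counts, within 1.5 times the main value, and 35 of the 38 for tested comparisons did. With counts summed over both libraries, and thus 2 levels in place of 4, there were 17664 shared CpGs, and with at most 5000 bp between neighbours 1377 clusters, both within 1.5 times. In the order number of shared CpGs, median distance, share with another within 1000 bp, clusters, share of cluster CpGs that are shared, level of CpGs beyond a read's length and up to 1000 bp away (14.6% in the main setting), and neither-allele level in F1VG and F1GV, the values were 19647, 132 bp, 95.02%, 2239, 65.8%, 11.6%, 86.1% and 84.6% at a limit of 70%. At 90% they were 4062, 1951 bp, 69.1%, 170, 43.6%, 19.9%, 90.6% and 89.5%, and with at least 16 reads per allele and library 6698, 344.5 bp, 81.0%, 542, 64.1%, 15.95%, 87.0% and 86.02%. Within a read's length, 59.2% had another shared CpG, and with at most 200 bp between neighbours there were 788 clusters. CpGs within a read's length were at 72.0%, and the mean of CpG levels beyond it, up to 1000 bp, was 14.9%. As means over CpGs with at least 5 such reads, the neither-allele levels were 87.5% and 85.97%. The share kept from F1VG to F1GV and from F1GV to F1VG was 81.2% and 83.0% at limits of 70% and 30%, 46.5% and 55.8% at 90% and 10%, 73.2% and 77.8% with 16 reads, and 65.8% and 71.7% with 1 CpG per 1000 bp. At 90% and 10% the difference from partly methylated CpGs from F1VG to F1GV was -3.18 percentage points. The share of multiples of 3 was 38.5% from 31 bp and 38.1% from 4 bp, the latter chosen after seeing the data. By Fisher's exact test at a limit of 90%, its differences were 1.92 (adjusted p = 0.365) against pairs below 10% and -2.95 (adjusted p = 0.763) against mixed pairs. The first rise of the distance profile was 5.80 percentage points at 70% and 11.3 at 90%, also chosen after seeing the data. The causes were not tested. At 8 reads a level of 80% needs 7 methylated reads, so that the deposited depth limits each CpG's class. No replicate could be left out with 1 library per cross. Genes and sequence at these positions were not analysed here.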
